A study of Homo sapiens with 6 samples.

Results

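The genes described here are 45 nucleolar factors of ribosome biogenesis, chosen by name from a list of proteins that make ribosomes and found, all 45, among the 56632 genes of each expression table. By their known roles they fall into 7 proteins of small nucleolar ribonucleoproteins (snoRNPs), 17 of the small subunit (SSU) processome, 4 of later 40S precursors, 9 of the large subunit (LSU) precursors, 6 of RNA polymerase I (Pol I) transcription, and NCL and NPM1, a pair of abundant nucleolar proteins. Poly(A) RNA was sequenced from HCT116, an established human colorectal cancer line, in 3 libraries from cells transfected with a negative control siRNA (siCTRL) and 3 from cells transfected with a pool of siRNAs against Matrin3 (siMatrin3), a nuclear RNA-binding protein. Both groups went through 2 rounds of transfection, with 72 hours and then 48 hours given in the labels. The study describes the libraries as biological triplicates of this 1 line, and the question was how the mRNAs of ribosome assembly factors differed between the groups and between the steps of assembly.

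Ribosome assembly begins in the nucleolus, where Pol I copies the ribosomal DNA into a long precursor RNA. Box C/D and box H/ACA snoRNPs then methylate and pseudouridylate this RNA, the SSU processome folds and cuts the part that becomes 18S ribosomal RNA, and a separate series of factors builds the large subunit around the 28S, 5.8S and 5S RNAs. Growing tumour cells make ribosomes at a high rate, and MYC is the transcription factor best known for raising the genes of this pathway, through the E-box CACGTG, a site read by other helix-loop-helix factors too.

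Libraries held 40808173 to 54185650 expected counts, and 14033 to 14368 genes reached 1 TPM (an abundance of transcripts per unit of length, scaled to sum alike in every library). MATR3, the target, was at 186, 180.2 and 176 TPM in the siCTRL libraries and at 95.2, 112 and 111 TPM in the siMatrin3 libraries, a log2 fold change of -0.93 (SE 0.0647, adjusted p = 7.67e-05). The epithelial markers EPCAM (235 to 249 TPM), CDH1 (67.5 to 76.8 TPM), KRT8, KRT18 and CDX2 were present in all 6 libraries. The leukocyte marker PTPRC was listed at 0 TPM, PDGFRB reached at most 0.25 TPM, and the fibroblast collagen COL1A1 was at 13.6 to 19.03 TPM. An expression value gives a gene's share of poly(A) RNA, so a changed amount of an mRNA per cell and a changed mix of cells cannot be told apart.

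The promoters of 7 factors whose mRNA was higher in siMatrin3 are shown because each holds an E-box that lies whole within the printed window. Each line gives 60 bases before to 30 bases after the RefSeq start of the gene, 5′ to 3′ on the strand of the gene, on GRCh38.p14, with the E-box in capitals.
UTP20, chr12:101280045-101280134, plus strand: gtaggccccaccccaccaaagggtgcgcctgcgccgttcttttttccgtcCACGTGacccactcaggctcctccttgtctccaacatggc
UTP4, chr16:69132589-69132678, plus strand: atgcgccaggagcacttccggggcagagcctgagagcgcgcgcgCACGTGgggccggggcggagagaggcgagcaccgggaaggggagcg
WDR43, chr2:28894607-28894696, plus strand: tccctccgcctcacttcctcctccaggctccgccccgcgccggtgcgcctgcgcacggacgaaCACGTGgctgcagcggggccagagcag
PWP2, chr21:44107339-44107428, plus strand: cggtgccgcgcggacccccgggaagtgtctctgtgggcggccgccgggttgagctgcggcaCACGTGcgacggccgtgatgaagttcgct
RRP9, chr3:51941875-51941964, minus strand: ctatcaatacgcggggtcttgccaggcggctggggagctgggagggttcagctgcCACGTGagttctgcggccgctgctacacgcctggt
NOP14, chr4:2963377-2963466, minus strand: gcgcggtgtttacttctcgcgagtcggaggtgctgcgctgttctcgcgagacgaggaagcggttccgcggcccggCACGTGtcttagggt
GNL3, chr3:52685972-52686061, plus strand: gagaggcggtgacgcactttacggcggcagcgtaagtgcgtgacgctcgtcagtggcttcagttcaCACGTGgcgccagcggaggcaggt
In these windows the first base of the E-box ran from position -16 in UTP4 to position 16 in NOP14, a range that the choice of window limits. BYSL and NOP2, also higher in siMatrin3, carried it from positions 29 and 36 on, not whole within the window, and 6 of the 15 higher factors with a promoter entry had none. Printing was limited to factors called higher. UTP18, FBL, NLE1 and PES1, which were not called, also held the E-box whole in that window, from positions 5, 7, 13 and 14. Among factors not called, 8 of the 22 with a promoter entry held it. RefSeq promoters, taken from 250 bases before to 50 bases after the start, were matched for 37 of the 45 factors. NOP58, NOLC1, UTP23, RRP12, RRP1B, RRS1, POLR1E and TCOF1 had no entry and are named only. The E-box, which reads the same on both strands, was found in 17 of the 37 promoters, or 45.9%. Among 10754 protein-coding genes that were tested for expression and had a promoter, 12.4% held it, and among all 27305 genes with a promoter 8.77% did. These letters occurred in 8 of 16 processome promoters, 5 of 7 LSU promoters, 2 of 3 pre-40S promoters and 2 of 5 snoRNP promoters, and in none of 4 Pol I promoters or those of NCL and NPM1. From 10 bases before to 50 bases after the start, a stretch chosen after the positions were seen, 15 of the 37 factors (40.5%) and 2.14% of the protein-coding genes tested held the E-box. Only UTP14A and UTP4 carried it elsewhere alone, at positions -241 and -16.

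**Figure D1:**
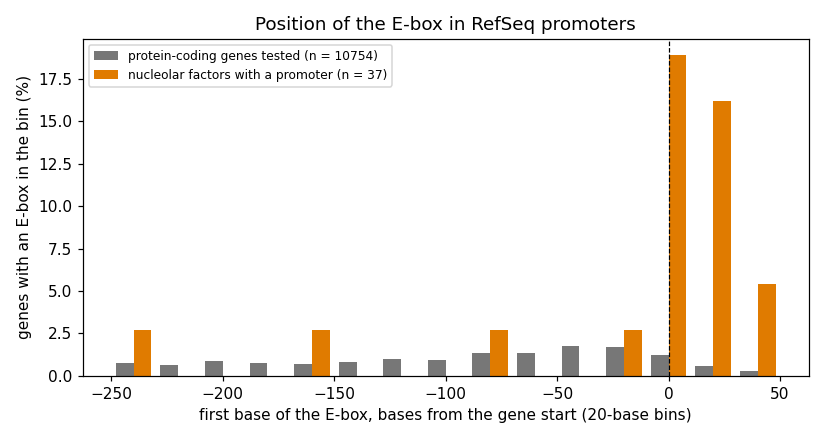
Share of genes (%) with an E-box whose first base lies in each 20-base bin, against the distance in bases from the gene start, for 10754 protein-coding genes tested (grey) and 37 nucleolar factors (orange). In the bin that begins 10 bases before the start, 18.9% of the factors and 1.26% of the other set held one, and 1 factor gives 2.70%.

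Across the 45 factors, 18 were higher in siMatrin3 than in siCTRL, or 40%, and 0 were lower, by edgeR's quasi-likelihood test at an adjusted p under 0.05 over all 16786 genes tested. In the same test 5.05% of all genes were higher and 5.97% were lower. No factor was lower by DESeq2 either, and 0 had a negative fold change at an unadjusted p under 0.05. Changes were small: those of the 18 ran from 9.09% (BYSL) to 23.5% (UTP20). The log2 fold change was positive for 44 of the 45, of which NOB1 and POLR1E turned negative with upper quartile scaling, and UTP23 and NHP2 under other alternatives. It was positive for 8339 of the 16786 genes tested, and for 4807 of the 8177 with a mean of at least 10 TPM in their higher group. Over the 45 factors its median was 0.13 and its range -0.03 to 0.30, while the median of all genes tested was -0.0011. Most factors are abundant, and 44 of them had a mean of at least 10 TPM in their higher group. Of these 17 were higher, against 7.97% of the 8177 genes at that level, whose median was 0.02. On log2 CPM (counts scaled by library size), all 3 siMatrin3 libraries stood above all 3 siCTRL libraries for 31 factors and below them for 0. That order held for 15.5% of all genes tested and for 22.8% of genes at 10 TPM or more.

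**Figure D2:**
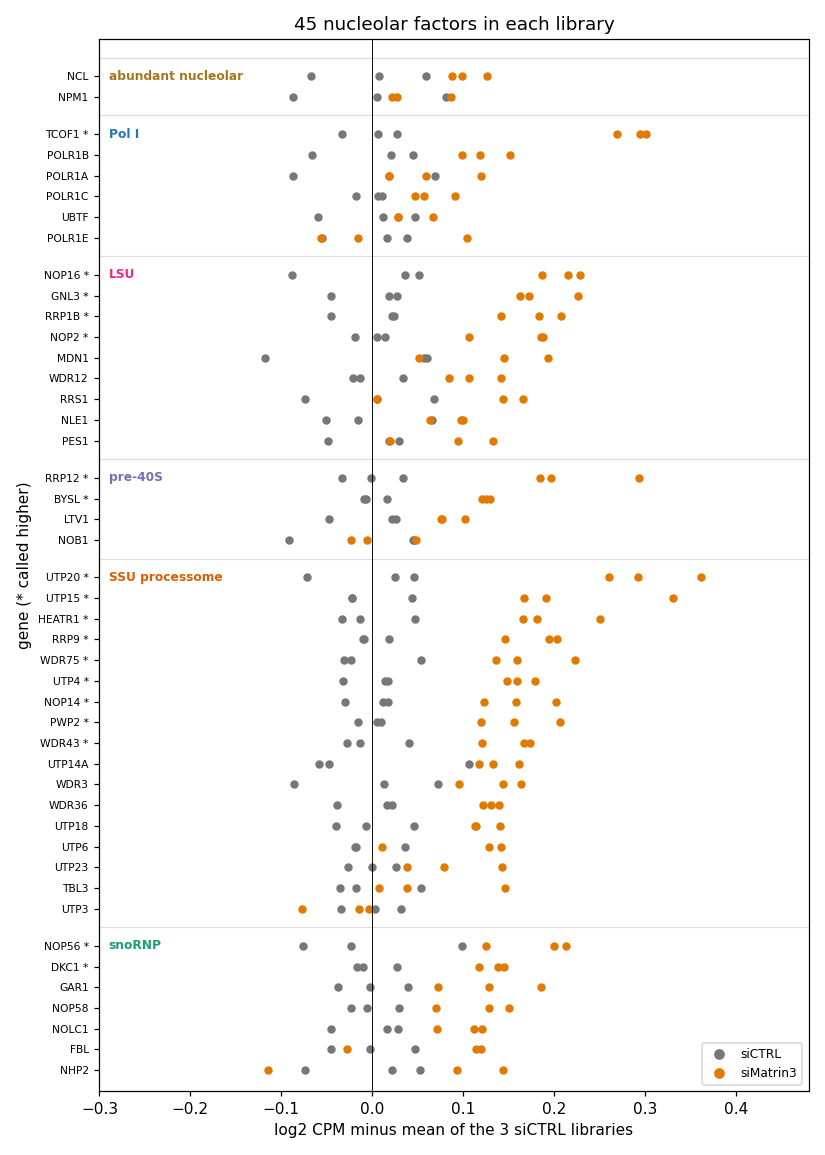
Log2 CPM of each of the 45 factors minus the mean of the 3 siCTRL libraries, 1 point per library (grey siCTRL, orange siMatrin3), grouped by role, with an asterisk at each of the 18 factors called higher. Orange points lie to the right of all grey points for 31 factors, 14 of them in the processome.

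The mean over the 45 factors, on log2 CPM relative to the siCTRL mean, was -0.0018, -0.0093 and 0.0111 in the siCTRL libraries and 0.11, 0.14 and 0.12 in the siMatrin3 libraries. Summed over the 45, the TPM were 5576, 5519 and 5589 in siCTRL and 5662, 5986 and 5985 in siMatrin3. NCL and NPM1 together outweigh the rest of that sum, and without them it was 2518, 2619 and 2586 TPM in siCTRL and 2698, 2827 and 2800.5 TPM in siMatrin3. All siMatrin3 libraries were above all siCTRL libraries on each of these measures.

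The count of 18 fell when any 1 library was left out, which also leaves fewer libraries in a group. It was 11, 10 and 4 without siCTRL library 1, 2 or 3, and 9, 5 and 4 without siMatrin3 library 1, 2 or 3, when between 1.69% and 4.01% of all genes were higher. It was 5 with an offset for each library's transcript lengths, when 1.74% of all genes were higher. With limma it was 2 on log2(TPM + 1) and 1 on log2(TPM + 0.1), when 0.900% and 0.923% of all genes were. The median log2 fold change of the 45 stayed between 0.11 and 0.13 in all of these.

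**Figure D3:**
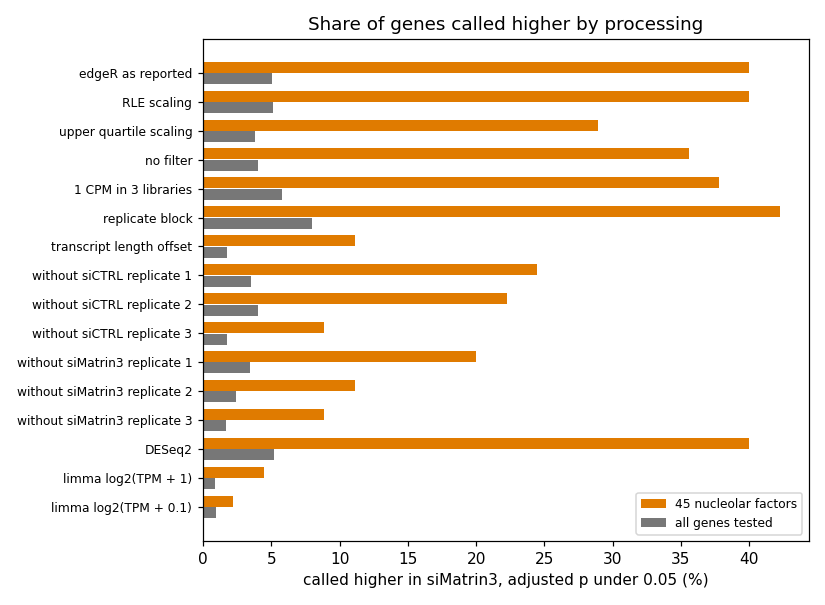
Share (%) called higher in siMatrin3 at an adjusted p under 0.05 among the 45 factors (orange) and all genes tested (grey), for edgeR as reported and 15 other ways of processing. The orange bar runs from 2.22% to 42.2% and is longer than the grey bar in each.

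The SSU processome is the large assembly of U3 snoRNP and other proteins on the 5′ part of the precursor RNA. Of its 17 members 9 were higher, against 5.05% of all genes tested, and the median log2 fold change was 0.15. On log2 CPM 14 stood higher in siMatrin3 without overlap, which held for 15.5% of all genes tested (22.8% at 10 TPM or more). Of these 14, UTP14A, WDR3 and UTP23 overlapped in TPM. Class counts in the paragraphs below can be set beside the same 5.05%, or 7.97% of genes at 10 TPM or more. UTP20, a long scaffold protein of HEAT repeats, was the scarcest factor, at 3.82, 3.85 and 3.68 TPM in siCTRL and 4.49, 4.43 and 4.75 TPM in siMatrin3. Its groups did not overlap, and its log2 fold change of 0.30 (SE 0.0476, adjusted p = 0.00391) was the highest of the 45. HEATR1, of the subcomplex that links Pol I transcription to processing, was at 17.4, 16.25 and 17.6 TPM in siCTRL and 19.4, 18.3 and 18.65 TPM in siMatrin3, a log2 fold change of 0.20 (SE 0.0437, adjusted p = 0.0178). RRP9, a protein particular to the U3 snoRNP, was at 59.7, 61.4 and 59.6 TPM against 65.3, 68.5 and 68.2 TPM, a log2 fold change of 0.18 (SE 0.0409, adjusted p = 0.0198). Each siMatrin3 library exceeded every siCTRL library for both genes. UTP4, in the same subcomplex as HEATR1, had the highest mean TPM of the class, at 60.5, 60.2 and 61.0 in siCTRL and 66.7, 66.5 and 68.7 in siMatrin3 (log2 fold change 0.16, SE 0.0401, adjusted p = 0.0286), again without overlap.

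The other processome members that rose were UTP15, WDR43 and WDR75, further subunits of the UTP4 and HEATR1 subcomplex, PWP2, a core subunit of another processome subcomplex, and NOP14. Their log2 fold changes ran from 0.15 for WDR43 to 0.23 for UTP15, with adjusted p from 0.0211 (UTP15) to 0.0353 (PWP2). The 8 members that did not pass were UTP3, UTP6, UTP14A, UTP18, UTP23, WDR3, WDR36 and TBL3. Among them WDR36 had the smallest adjusted p, 0.0671, at a log2 fold change of 0.13. UTP3 was the only factor of the 45 with a negative value, a log2 fold change of -0.03 (SE 0.0383, adjusted p = 0.654). The fold change of UTP23 was 0.09 on counts, but -0.04 with the transcript length offset, and its mean level was 17.1 TPM in siCTRL and 16.5 TPM in siMatrin3. With any 1 library left out, the processome count ran from 1 (without siMatrin3 library 3) to 6 (without siCTRL library 1), and limma on TPM called 0.

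Precursors of the small subunit that have left the processome carry RRP12, BYSL, LTV1 and NOB1. RRP12, an export factor, was at 46.0, 44.7 and 43.3 TPM in siCTRL and 52.4, 50.5 and 50.1 TPM in siMatrin3, a log2 fold change of 0.23 (SE 0.0444, adjusted p = 0.0111). BYSL, which stays with the precursor from the nucleolus to the cytoplasm, was at 24.8, 24.95 and 27.3 TPM against 29.1, 28.2 and 29.4 TPM, a log2 fold change of 0.13 (SE 0.0356, adjusted p = 0.0480). Neither gene overlapped between the groups, and BYSL had the smallest change of the 18. LTV1, a factor released late in 40S assembly, was at 34.7, 33.5 and 34.8 TPM in siCTRL and 36.1, 35.8 and 35.8 TPM in siMatrin3, and its log2 fold change of 0.08 missed the threshold (SE 0.0369, adjusted p = 0.181). NOB1, the nuclease that makes the end of 18S ribosomal RNA, was at 124, 115 and 124 TPM in siCTRL and 118, 125 and 118 TPM in siMatrin3. Its groups overlapped, and its log2 fold change was 0.005 (SE 0.0480, adjusted p = 0.965). With any 1 library left out, or with DESeq2, at most 1 of the 4 was called.

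Of the 9 LSU factors 4 were higher, NOP16, GNL3, RRP1B and NOP2, and the median log2 fold change was 0.13. NOP16, a protein of early large subunit precursors, was at 44.3, 48.3 and 48.1 TPM in siCTRL and 53.6, 54.85 and 53.4 TPM in siMatrin3, a log2 fold change of 0.21 (SE 0.0453, adjusted p = 0.0165). GNL3, the GTPase nucleostemin and the most abundant of the class, was at 118, 119.8 and 121 TPM against 131, 137 and 129.9 TPM, a log2 fold change of 0.19 (SE 0.0406, adjusted p = 0.0169). RRP1B was at 31.1, 30.3 and 31.4 TPM against 34.3, 35.4 and 33.8 TPM, a log2 fold change of 0.18 (SE 0.0414, adjusted p = 0.0224). In all 3 genes the lowest siMatrin3 library was above the highest siCTRL library. NOP2, a methyltransferase of the large ribosomal RNA, had a log2 fold change of 0.16 (adjusted p = 0.0368). The 5 that did not pass were PES1 and WDR12, subunits of the PeBoW complex, MDN1, a giant ATPase that strips factors from the precursor, NLE1, a substrate of MDN1, and RRS1, which helps to bring in the 5S RNA. Their log2 fold changes lay between 0.08 and 0.13, with adjusted p from 0.106 (WDR12) to 0.281 (PES1). Without a single library the LSU count was 1 to 3.

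The snoRNP proteins are among the more abundant factors, with siCTRL means from 42.7 TPM (GAR1) to 317 TPM (NOP56). Of the 7, DKC1 and NOP56 were higher, and the median log2 fold change was 0.12. DKC1, the pseudouridine synthase dyskerin of box H/ACA particles, was at 96.1, 92.5 and 89.2 TPM in siCTRL and 105, 102 and 101 TPM in siMatrin3, a log2 fold change of 0.13 (SE 0.0373, adjusted p = 0.0450). NOP56, a core protein of box C/D particles, was at 289.7, 355 and 305 TPM in siCTRL and 339, 366 and 371 TPM in siMatrin3, a log2 fold change of 0.18 (SE 0.0498, adjusted p = 0.0452). DKC1 did not overlap between the groups, while for NOP56 siCTRL library 2 was above siMatrin3 library 1 in TPM, though not in CPM. GAR1, a box H/ACA protein, was at 44.01, 41.1 and 43.0 TPM in siCTRL and 46.2, 48.4 and 43.98 TPM in siMatrin3, so that its groups just overlapped in TPM, and its log2 fold change of 0.13 missed the threshold (SE 0.0440, adjusted p = 0.0899). NOP58, NOLC1, FBL and NHP2 had log2 fold changes from 0.04 to 0.12 and adjusted p from 0.105 to 0.736. The class mean in siMatrin3 library 1 was 0.06 above the siCTRL mean on log2 CPM, against 0.15 and 0.12 in libraries 2 and 3. Without any single library at most 1 of the 7 was called, and the count was 0 with upper quartile scaling and on TPM.

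Among the 6 genes of Pol I transcription only TCOF1 was higher, and the median log2 fold change was 0.07. TCOF1, or treacle, a nucleolar scaffold that works with Pol I and its factor UBTF, was at 37.4, 39.9 and 39.5 TPM in siCTRL and 46.1, 47.3 and 48.1 TPM in siMatrin3. Every siMatrin3 library was well above every siCTRL library, with a log2 fold change of 0.29 (SE 0.0382, adjusted p = 0.00163). TCOF1 was also the only factor of the 18 that kept its call in all 16 alternatives, UTP20 being called in 14 and RRP12 in 12. POLR1B, the second largest Pol I subunit, was at 22.0, 20.4 and 21.4 TPM in siCTRL and 22.3, 23.5 and 23.5 TPM in siMatrin3, and its log2 fold change of 0.12 missed the threshold (SE 0.0447, adjusted p = 0.110). POLR1C, a subunit shared with RNA polymerase III and the most abundant of the class, was at 51.1, 50.4 and 49.3 TPM against 54.6, 52.9 and 50.2 TPM, with overlap in TPM and a log2 fold change of 0.07 (SE 0.0350, adjusted p = 0.277). POLR1A, the largest subunit, UBTF, which binds the ribosomal DNA promoter, and POLR1E had log2 fold changes from 0.01 to 0.07 and adjusted p from 0.454 to 0.911. Whether the classes differ from each other was not tested, since they hold few genes that share the same 6 libraries.

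NCL and NPM1 are shuttling proteins that bind RNA, histones and ribosomal precursors throughout the nucleolus. NCL was at 654, 639.9 and 644 TPM in siCTRL and 685, 694 and 684 TPM in siMatrin3, without overlap, and its log2 fold change of 0.10 missed the threshold (SE 0.0375, adjusted p = 0.109). NPM1, the most abundant of the 45, was at 2404, 2259 and 2358 TPM against 2279, 2465 and 2500.3 TPM, overlapping, with a log2 fold change of 0.04 (SE 0.0437, adjusted p = 0.580). The tables hold 49 NPM1 pseudogenes, which took 0.882% of the counts that NPM1 and its copies received, so its own count is uncertain by how such reads were divided. Exons of DKC1, GNL3, NCL, NOP56 and NOP58 overlap snoRNA genes on the same strand in GENCODE 44, those of HEATR1 a long noncoding RNA gene, and those of LTV1, NOP2 and RRS1 other protein-coding genes, so reads there could belong to either.

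**Figure D4:**
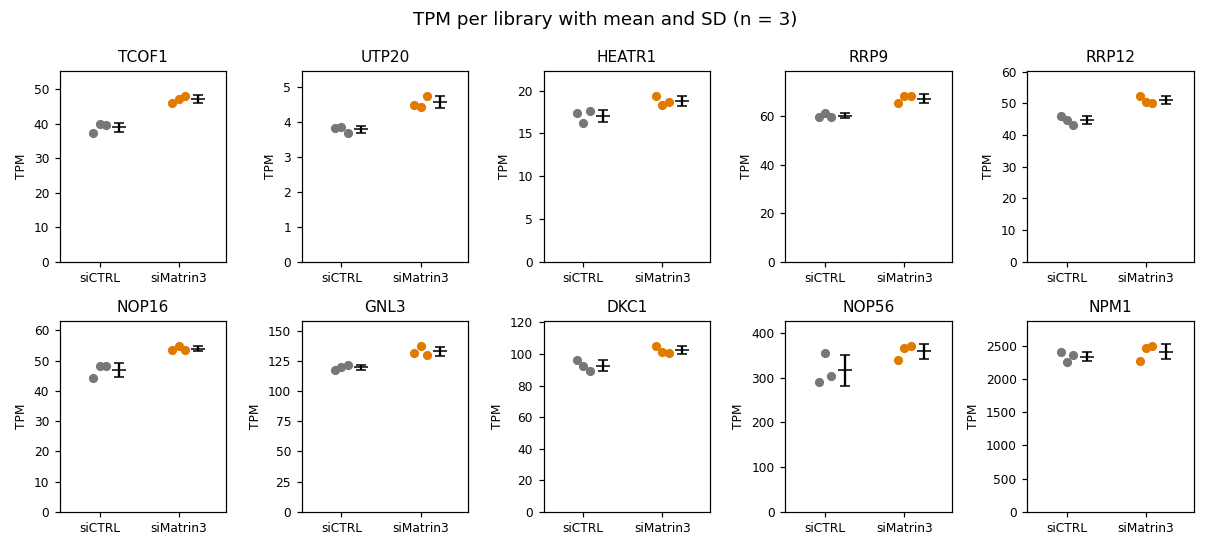
TPM in each library (points) with the mean and SD (n = 3) for 10 of the factors in siCTRL (grey) and siMatrin3 (orange), each panel on its own axis from 0. The groups are apart for TCOF1, UTP20, HEATR1, RRP9, RRP12, NOP16, GNL3 and DKC1, and overlap for NOP56 and NPM1.

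**Figure D5:**
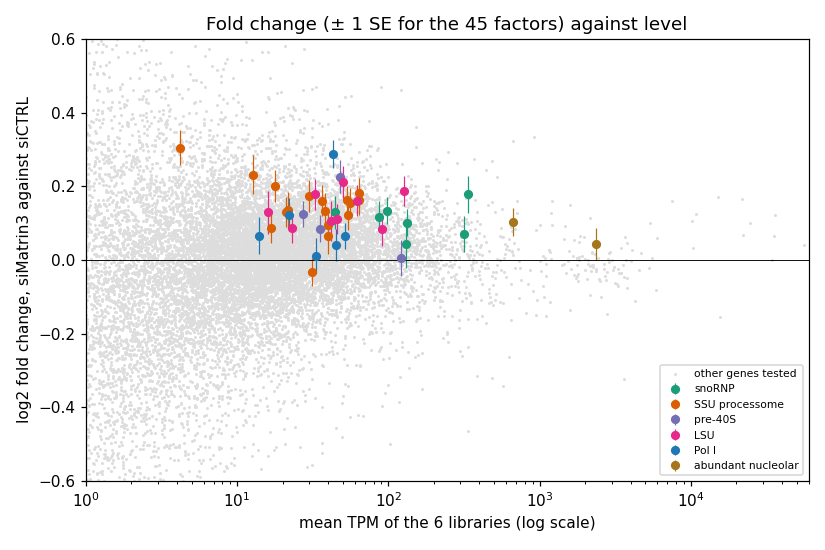
Log2 fold change of siMatrin3 against siCTRL (y) by mean TPM of the 6 libraries (x, log scale) for the 45 factors, coloured by role with bars of 1 SE, and for the other genes tested (grey), cropped to 1 TPM or more and to changes within 0.6 either way. All factors but UTP3 lie above 0, NOB1 and POLR1E so near that they turn negative with upper quartile scaling, and UTP20 and TCOF1 stand highest.

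Levels per transcript length spanned from 3.78 TPM for UTP20 to 2340 TPM for NPM1 in the siCTRL means, with a median of 42.7 TPM. TCOF1 and RRP12, with the most stable calls beside UTP20, were of middle abundance. The 17 factors with an E-box in their promoter had a median log2 fold change of 0.13 and 9 of them were higher, and the 20 without it had a median of 0.11 and 6 were higher. Among other protein-coding genes tested, 9.06% of 1314 genes with the E-box and 5.29% of 9403 without it were higher. MYC mRNA was at 337, 324 and 344 TPM in siCTRL and 385, 407 and 407 TPM in siMatrin3, without overlap, a log2 fold change of 0.27 (SE 0.0396, adjusted p = 0.00271). Its part in the values of the 45 factors was not tested.

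A further 113 genes of ribosome biogenesis, listed by role with earlier results of these data known, were measured beside the 45. Of these 27 were higher and 1 was lower, against 5.05% and 5.97% of all genes tested. A positive fold change was seen for 99, with a median log2 of 0.10, and for 8339 of all 16786 genes tested. The higher genes were 7 of 23 of the processome, 14 of 47 of the large subunit, 2 of 8 of 40S precursors, 2 of 9 of snoRNPs, 1 of 10 of Pol I and 1 of 16 exonucleases and their partners. The Pol I and exonuclease shares, 10% and 6.25%, rest on 1 gene each. Beside them stand 5.05% of all genes tested and 7.97% of those at 10 TPM or more in their higher group. All 16 of the exonuclease set had a siCTRL mean of at least 16.3 TPM. The smallest p belonged to NOL10, a processome protein (log2 fold change 0.30, SE 0.0366, adjusted p = 0.00114), RBM28, an LSU factor (0.25, SE 0.0401, adjusted p = 0.00435), NAT10, which acetylates 18S ribosomal RNA (0.24, SE 0.0397, adjusted p = 0.00532), URB2, an LSU factor (0.28, SE 0.0463, adjusted p = 0.00550), and PDCD11, a large processome scaffold (0.22, SE 0.0379, adjusted p = 0.00569). The gene that fell was EFL1, a GTPase that readies the 60S subunit for translation, at 8.16 ± 0.140 TPM in siCTRL and 7.04 ± 0.365 TPM in siMatrin3 (SD, n = 3; log2 fold change -0.21, SE 0.0562, adjusted p = 0.0423). The count of higher genes fell to 9 without siCTRL library 3, and that of lower genes to 0 without any 1 library other than siCTRL library 2, and with DESeq2. E-boxes were present in 21 of the 99 promoters matched for these genes, or 21.2%.

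The tables also give for each gene a transcript length averaged over its transcripts by their estimated abundance, which moves when the mix of transcripts moves. This length was compared for the 41 factors that had 2 or more annotated transcripts and no library under 50 expected counts. By limma 0 of the 41 passed at an adjusted p under 0.05, and 1 of the 12148 genes tested did, or 0.00823%. With so few calls among all genes, 0 of 41 does not show that their mix of transcripts stayed the same. A single factor, UTP23, had an unadjusted p under 0.05. It was at 2945, 2672 and 2768 bases in siCTRL and 3068.5, 2972 and 3022 bases in siMatrin3, without overlap, a log2 difference of 0.11 (SE 0.0396, adjusted p = 0.752). PWP2 followed, at 3112, 3006 and 3209 bases against 2949, 2983 and 2989.9 bases, without overlap (log2 difference -0.06, SE 0.0260, adjusted p = 0.810). NOP14 came next, at 3485 ± 14.7 bases in siCTRL and 3457 ± 5.54 bases in siMatrin3 (SD, n = 3; log2 difference -0.01, SE 0.00648, adjusted p = 0.879). For 40 of the 41 the length differed by less than 5% between the group means.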

How the data were processed

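Poly(A) RNA-seq tables of 3 siCTRL and 3 siMatrin3 libraries were used, grouped by their labels. The authors made stranded libraries, sequenced both ends, and used STAR and RSEM on hg19. Tools named in the submitters' processing notes are cutadapt, STAR 2.5.1 and RSEM, and the methods give another STAR version and a different wording of the harvest time. The authors deposited expected counts (estimated counts in which RSEM shares out ambiguous reads), TPM, and transcript lengths weighted by abundance. The deposited FPKM values were not used. Libraries held 40808173 to 54185650 expected counts.

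Rounded expected counts that passed filterByExpr were scaled with TMM factors. The main test, without covariates, was the two-sided quasi-likelihood test of edgeR 4.0.16 under R 4.3.3, with Benjamini-Hochberg adjustment over 16786 genes and a threshold of 0.05. Fold changes and adjusted p of genes are from this test. Their SE was derived as the absolute log2 fold change divided by the square root of the test's F statistic. Length differences, with their SE and adjusted p, are from limma 3.58.1 on log2 length. The p-values weigh the difference between the groups against the spread between libraries of a group, estimated with information shared across genes. edgeR's biological coefficient of variation was 5.98%. Steps were tested on simulated data. Alternatives changed the scaling (RLE, upper quartile), the filter (none, or 1 CPM in 3 libraries), the model (a replicate block, a transcript length offset), the samples (each library left out), the tool (DESeq2 1.42.0, or limma on log2(TPM + 1) or on log2(TPM + 0.1)), the threshold (0.01), and the count minimum for length.

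The 45 factors, their roles, the 118 further pathway genes (5 had no match) and the tests were chosen with earlier results of these data known. Values per library are given for the 3 factors with the smallest p in each role (both of a class of 2) and the most abundant one. Further pathway genes named are the 5 with the smallest p among those higher, and the one that was lower, and lengths are given for the 3 with the smallest p. Other factors are named to account for all 45. Promoters are from RefSeq on GRCh38.p14. Gene names and overlaps came from GENCODE 44, which is not the build of the tables. Protein sequences were not analysed here.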

Additional observations from a re-analysis of the deposited data

How the results depend on the processing

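Of the 18 factors called higher, all had a positive fold change in each of the 16 alternatives, and 6 were called in 10 or more of them. The median log2 fold change of the 45, 0.13, was 0.107 with upper quartile scaling, 0.111 with limma on log2(TPM + 1), and 0.111 to 0.134 with a library left out. Leaving out each library in turn gave 4 to 11 factors called higher, 9 to 20 further pathway genes higher and 0 to 1 lower, and 0 to 1 snoRNP, 1 to 6 processome and 1 to 3 LSU factors. With the transcript length offset 5 factors were called (0 snoRNP, 2 processome, 1 LSU), with 11 further genes higher and 0 lower. With limma on log2(TPM + 1) there were 2 factors (0 snoRNP, 0 processome, 1 LSU) with 6 further genes higher and 0 lower, and on log2(TPM + 0.1) 1 factor (0, 0 and 0 of those classes) with 6 and 0. An adjusted p under 0.01 left 2 factors (0 snoRNP, 1 processome, 0 LSU) with 7 further genes higher and 0 lower. snoRNP factors called were 0 with upper quartile scaling, and 1 both without a filter and at 1 CPM in 3 libraries. DESeq2 called 18 factors higher, 17 of them shared with edgeR, and 0 further genes lower. TCOF1 was called under each alternative, and no factor was called lower or passed on length under any. The cause of these differences was not tested. Leaving out a library also lowered the number of samples, and an adjusted p under 0.01 is a stricter threshold.

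Factors that did not pass changed sign in places. NOB1 was at -0.013 with upper quartile scaling, -0.0023 at 1 CPM, -0.039 and -0.017 without siCTRL or siMatrin3 replicate 2 (-0.039 to 0.028 over the libraries left out), and -0.0062 and -0.0063 on limma's TPM scales. POLR1E was at -0.0063 with upper quartile scaling, -0.016 without siCTRL replicate 1, -0.037 without siMatrin3 replicate 2 (up to 0.042 without another), and -0.0077 and -0.0079 on TPM. UTP23 was at -0.037 with the length offset and -0.052 and -0.055 on TPM, and NHP2 at -0.0097 without siMatrin3 replicate 2 (up to 0.114 without replicate 1).

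Same-numbered libraries deviated from their group means with correlations of 0.177, 0.0896 and 7.21e-05. siCTRL libraries 1 and 2 each correlated best with the siMatrin3 library of their own number. siCTRL library 3 correlated better with siMatrin3 library 2 (0.0641) than with its own number. These values do not settle whether the samples were paired, and the numbers were not taken to pair them. The replicate block gave 19 factors higher, beside 7.97% of all genes, and 40 further genes higher against 27. Each group had 3 libraries, and every factor had at least 1026 expected counts in each library. How far the spread between libraries or the depth limited precision was not tested.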
